A study of Mus musculus with 24 samples.

Results

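The tubulin genes are the 10 rows of the deposited expression table whose symbols are Tuba1a, Tuba1b, Tuba1c, Tubb2a, Tubb2b, Tubb3, Tubb4b, Tubb5, Tubb6 and Tubg1, out of 23235 genes listed. They were chosen by name and not by their values, and are followed here across all 24 libraries. The libraries are RNA-seq of mouse oocytes and zygotes: 3 genotypes, 4 stages and 2 libraries per group make 12 groups. The genotypes were Cnot6l-/-, a group labelled Btg4-/- and wild type (WT), all on C57BL/6 and labelled as 21 days old. Per the labels, oocytes at the germinal vesicle stage (GV) were taken 48 h after PMSG, a hormone that drives follicle growth. Oocytes in the first meiotic division (MI) and eggs arrested in the second (MII) came from 8 h and 16 h of culture. Zygotes were collected from fertilised females 24 h after hCG, the hormone that triggers ovulation, so an MII to zygote difference also spans a change from culture to the animal. The labels describe neither the alleles nor whether the 2 libraries of a group came from different mice, so p-values measure the spread between these libraries, which may be technical. Each library pooled RNA of 100 oocytes per the extraction protocol, while the design text of the series mentions 2 oocytes.

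Alpha and beta tubulin pair as heterodimers that assemble into microtubules, the fibres of the meiotic spindle, and gamma-tubulin starts new microtubules at spindle poles. A fully grown oocyte stops transcription, so its transcript levels afterwards follow storage and decay. CCR4-NOT is the complex that shortens poly(A) tails; CNOT6L is one of its deadenylases, and BTG4 links it to mRNA in the oocyte. In mammalian cell lines tubulin mRNAs are also subject to autoregulation: TTC5 recognises the first amino acids of alpha or beta tubulin as they leave the ribosome, and SCAPER then brings CCR4-NOT to the mRNA.

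Within the alpha and within the beta family the genes are copies of each other. The sequences below are the first coding bases of a selection of the tubulin genes, with the first 4 codons in capitals. In the alpha and beta genes these codons encode the residues read by TTC5, and the gamma gene is shown for contrast. All come from gencode vM1 on the NCBIM37 assembly (mm9), and are written 5′ to 3′ on the coding strand.
Tuba1b: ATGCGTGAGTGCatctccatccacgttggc
Tubb2a: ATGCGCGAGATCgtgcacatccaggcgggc
Tubb3: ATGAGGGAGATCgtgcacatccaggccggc
Tubb4b: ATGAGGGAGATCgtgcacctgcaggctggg
Tubb5: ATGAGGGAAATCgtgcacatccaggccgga
Tubg1: ATGCCGAGAGAAatcatcaccctacagttg
Tubb3 and Tubb4b had 0 differing bases among these 12, and Tubb4b and Tubb5 had 1, whereas Tubg1 differed from Tubb4b at 8. The 12 bases were the same in Tuba1a, Tuba1b and Tuba1c. Over the whole coding sequence Tuba1a and Tuba1b were 98.3% identical, Tuba1b and Tuba1c 97.94%, and Tubb2a and Tubb2b 96.49%. The other pairs of beta genes were 80.21% to 85.88% identical, and Tubg1 was 52.1% identical to Tuba1a. How the authors' counting divided reads among these copies is not stated, so the single values of Tuba1a, Tuba1b and Tuba1c, and of Tubb2a and Tubb2b, are uncertain.

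The 3′ ends were searched as well, since cytoplasmic elements there steer poly(A) tails in oocytes. The last 90 bases of each annotated 3′ UTR were scanned on the transcribed strand. The cytoplasmic polyadenylation element, taken as TTTTAT or TTTTAAT, was in this window in 0 of the 10 genes, and in 16.06% of 18678 annotated 3′ UTRs. The polyadenylation hexamer AATAAA was there in 6 of the 10 and in 62.61% of all. Its variant ATTAAA was there only in Tubb4b among the 10, and in 19.68% of all. The stretches that hold the hexamer, in capitals, are shown for 2 of the beta genes and for the gamma gene.
Tubb4b: taccaccATTAAAgcaattcatagtgtgtg
Tubb5: gccccagagccaaaAATAAAtgggaattgg
Tubg1: atctttAATAAAgcactggatgtaaaccaa
These matches describe annotated letters and are no evidence of use. Tubb4b lies on the minus strand at chr2:25077678-25080222 (mm9 as in the deposited table, 1-based) with a 3′ UTR of 148 bases, and is named Tubb2c in the annotation. Tubb5 lies on the minus strand at chr17:35970865-35975246 with a 3′ UTR of 1056 bases, and Tubb2a on the minus strand at chr13:34166147-34169877 with one of 167 bases. Tubg1 lies on the plus strand at chr11:100981445-100987733.

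Values are FPKM (fragments scaled to transcript length and to mapped fragments) as deposited. Summed over all genes they were 62984 in WT zygotes and 497690 in WT GV oocytes on average, so they do not add up to a constant, and no source used here states how they were scaled between libraries. Read depth is unknown, and precision therefore rests on the spread between libraries. Smart-Seq2 primes on poly(A) tails, so a value may follow tail length as well as the amount of mRNA; these were not separated. Differences were fitted with limma on log2(FPKM + 1) over the 10884 genes that averaged 1 FPKM or more in some group, and a gene is called where its Benjamini-Hochberg adjusted p over these genes is under 0.05. All 10 tubulin genes passed this filter, Tuba1a through the MI oocytes of the Cnot6l-/- and Btg4-/- labels alone. Tubb6 has its gene on the plus strand at chr18:67550385-67562403. Cnot6l, the label check, was at 3.40 to 7.26 FPKM in the Cnot6l-/- libraries and 7.07 to 73.92 FPKM in WT, and was called lower at GV, MI and MII but not in zygotes (adjusted p = 0.272). Btg4 was not lower in the libraries labelled Btg4-/-, at 764.77 to 2515.06 FPKM against 553.86 to 2489.88 FPKM in WT, so this label could not be checked from transcript level. All 10 oocyte markers were detected, with summed values of 1470 to 14768 FPKM. Markers of cumulus and granulosa cells summed to 1.48 to 28.8 FPKM (6 of 10 reached 1 FPKM), those of sperm to 3.82 to 105 FPKM (5 of 8, with Tnp1 at 0) and those of blood to 0.29 to 2.83 FPKM (2 of 6, with Hbb-b1 and Hba-a1 at 0). The sperm list summed to 49.8 to 105 FPKM over the GV libraries, which came from unfertilised oocytes. It summed to 3.82 to 9.85 FPKM over the zygote libraries, the only ones collected after fertilisation. Few genes carried these sums at MI. In the WT MI library of column 2, Odf2 was at 18.7 of 23.6 FPKM of the sperm list. Cyp19a1 was at 8.16 of 8.85 FPKM of the cumulus and granulosa list there. In such pooled samples, fewer cells of a type and less RNA per cell cannot be told apart.

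At the GV stage beta tubulins made up most of the message, and Tubb4b was by far the highest. Tubb4b was at 654 and 797 FPKM in Cnot6l-/- oocytes, at 633 and 653 FPKM in oocytes labelled Btg4-/- and at 553 and 668 FPKM in WT oocytes. Tubb6 followed with 158 to 305 FPKM over the 6 GV libraries, and then Tubb2a with 63.0 to 188.5 FPKM and Tubb3 with 66.0 to 136 FPKM, whose ranges overlap. Tubb5, a widely expressed beta tubulin, was at 47.8 to 68.3 FPKM, its highest library within the ranges of both. Tuba1c ranged from 13.8 to 42.0 FPKM, Tubg1, the gamma-tubulin of spindle poles, from 12.8 to 28.0 FPKM and Tuba1b from 11.0 to 17.7 FPKM, so that these 3 overlap in order. Tubb2b at 2.33 to 5.32 FPKM and Tuba1a at 0.10 to 1.63 FPKM were the lowest. Tubb4b alone made up 53.0% to 60.1% of the summed tubulin FPKM in Cnot6l-/-, 45.2% to 54.7% in the group labelled Btg4-/- and 57.1% to 58.9% in WT GV oocytes.

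No tubulin gene was called against WT at this stage. Cnot6l-/- minus WT called 0 of the 10 genes at GV, against 9.09% of all tested genes in either direction, and the group labelled Btg4-/- minus WT called 0, against 7.43%. At an unadjusted p under 0.05 limma also found 0 and 0. The largest log2 differences were 0.47 ± 0.49 (SE) for Tubb3 in Cnot6l-/- and 0.80 ± 0.46 for Tubb2a in the group labelled Btg4-/-, which had 1 high library, at 188.5 FPKM beside 96.5 FPKM.

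**Figure D1:**
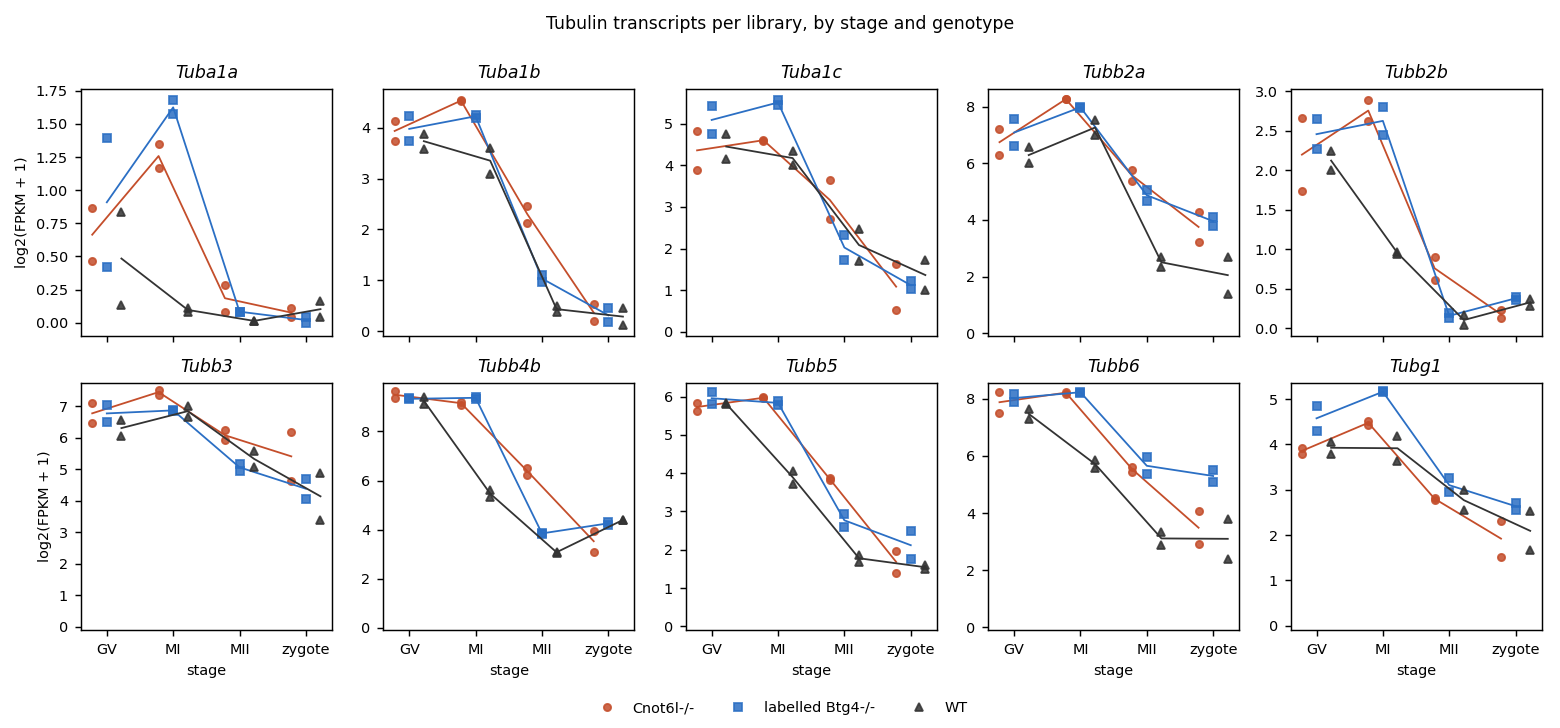
Level of each tubulin gene in every library, as log2(FPKM + 1), against stage; circles are Cnot6l-/-, squares the libraries labelled Btg4-/- and triangles WT, with lines through the means of 2 libraries. At MI, Tubb4b, Tubb5 and Tubb6 lie far above WT in both other genotypes, while Tubb2a and Tubb3 are high in all 3.

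In WT oocytes the tubulin transcripts changed unequally between GV and MI. Tubb4b, Tubb5, Tubb6 and Tubb2b fell, while Tubb2a, Tubb3, Tubg1, Tuba1a, Tuba1b and Tuba1c were not called. Tubb4b was at 47.4 and 39.3 FPKM at MI, against 553 and 668 FPKM at GV, and fell by 3.79 ± 0.27 on the log2 scale (SE; limma adjusted p = 5.24e-09). Both MI libraries lay more than 10-fold under both GV libraries. Tubb5 was at 15.7 and 12.2 FPKM, against 54.7 and 55.5 FPKM, and fell by 1.92 ± 0.27 (adjusted p = 9.31e-06). Tubb6 was at 57.6 and 46.2 FPKM, against 158 and 199 FPKM, and fell by 1.76 ± 0.43 (adjusted p = 0.00185). Tubb2b was at 0.91 and 0.96 FPKM, against 3.0 and 3.74 FPKM, and fell by 1.17 ± 0.24 (adjusted p = 3.61e-04). In contrast, Tubb2a was at 184 and 127 FPKM at MI, against 63.0 and 94.9 FPKM at GV; both MI libraries were the higher ones, with a log2 difference of 0.97 ± 0.46 that missed the threshold (adjusted p = 0.0708). Tubb3 was at 129 and 101 FPKM, against 66.0 and 92.8 FPKM, likewise without overlap and not called (0.54 ± 0.49, adjusted p = 0.336). In all, 4 of the 10 genes were called lower, against 65.1% of all tested genes. The marker lists were lower as well: those of cumulus and granulosa cells summed to 7.14 to 8.85 FPKM at MI, against 20.0 to 27.0 FPKM at GV, and those of sperm to 17.99 to 23.6 FPKM, against 49.8 to 52.6 FPKM. Their part was not tested.

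The split between these groups depended on scaling in part. Median-ratio scaling, which levels the libraries on 3677 genes above 1 FPKM throughout, moved the median log2 change of all tested genes between GV and MI in WT to -0.16, against -0.95 as deposited. After it 3 tubulin genes were called higher and 2 lower, where 0 and 4 were called as deposited. Tubb4b stayed lower at -2.53 (adjusted p = 2.94e-06) and Tubb5 at -0.69 (adjusted p = 0.0142), whereas the calls of Tubb6 (-0.51, adjusted p = 0.480) and Tubb2b (-0.34, adjusted p = 0.261) were lost. Tubb2a (2.22, adjusted p = 0.00549), Tubb3 (1.78, adjusted p = 0.0221) and Tubg1 (1.14, adjusted p = 0.0374) were then higher at MI than at GV. With every library set to the same summed FPKM, 4 were called higher and 1 lower: Tuba1b joined those higher, at 1.11 (adjusted p = 0.0154), and the call of Tubb5 was lost (-0.32, adjusted p = 0.254). As deposited and under both scalings, the log2 change of Tubb4b lay below those of Tubb2a and Tubb3. Each scaling divides a library by a single factor and shifts these genes about equally, so it could not change that order. Over all tested genes, 1494 were called higher and 2999 lower after median-ratio scaling, where 82 and 7090 were as deposited. The filter of 1 FPKM was applied again to the scaled values. All tested genes are therefore 9823 after median-ratio scaling and 10351 with equal sums, against 10884 as deposited.

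At MI the difference between genotypes was at its widest for Tubb4b. Tubb4b was at 546 and 592 FPKM in Cnot6l-/- oocytes and at 642 and 681 FPKM in oocytes labelled Btg4-/-, against 47.4 and 39.3 FPKM in WT oocytes. The 2 group means were 13.1 and 15.3 times that of WT, and kept 78.4% and 103% of the GV mean of their own genotype, against 7.10% in WT. The log2 difference from WT was 3.69 ± 0.27 for Cnot6l-/- (adjusted p = 1.34e-08) and 3.91 ± 0.27 for the group labelled Btg4-/- (adjusted p = 5.52e-09). Tubb5 was at 62.1 and 61.2 FPKM in Cnot6l-/- and 54.0 and 58.2 FPKM in the group labelled Btg4-/-, against 15.7 and 12.2 FPKM in WT, with log2 differences of 2.07 ± 0.27 and 1.94 ± 0.27 (adjusted p = 4.07e-06 and 7.35e-06). Tubb6, another beta tubulin, was at 290.2 and 303 FPKM and at 296 and 303 FPKM, against 57.6 and 46.2 FPKM in WT; its differences were 2.50 ± 0.43 and 2.52 ± 0.43 (adjusted p = 8.23e-05 and 6.99e-05). For these 3 genes no library of either group overlapped WT. After median-ratio scaling Tubb4b (2.75 and 2.69) and Tubb5 (1.16 and 0.76) stayed called in both, and Tubb6 only in Cnot6l-/- (1.56, adjusted p = 0.0292; 1.30 in the group labelled Btg4-/-, adjusted p = 0.0691).

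The 2 genes of lowest level were likewise higher than in WT at MI. Tubb2b was at 5.17 and 6.39 FPKM in Cnot6l-/- and 5.96 and 4.47 FPKM in the group labelled Btg4-/-, against 0.91 and 0.96 FPKM in WT MI oocytes, with log2 differences of 1.80 ± 0.24 and 1.67 ± 0.24 (adjusted p = 4.73e-06 and 9.27e-06). Tubb2b stayed called after median-ratio scaling, at 1.11 and 0.78. Tuba1a was at 1.25 and 1.54 FPKM in Cnot6l-/- and at 1.97 and 2.20 FPKM with the Btg4-/- label, against 0.08 and 0.06 FPKM in WT. Since it passed the filter through these 2 groups, it had to stand higher in them, and its differences are a description without a test.

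Tuba1b, Tuba1c and Tubg1 differed less, with 1 call in Cnot6l-/-, and 3 with the Btg4-/- label. Tuba1b was at 22.2 and 22.3 FPKM in Cnot6l-/- and 18.1 and 17.4 FPKM in the group labelled Btg4-/-, against 11.3 and 7.55 FPKM in WT MI oocytes; both were called higher (1.18 ± 0.24 and 0.88 ± 0.24, adjusted p = 4.37e-04 and 0.00435). Without the WT MI library of column 3 the call in the group labelled Btg4-/- was lost (adjusted p = 0.0802). Tuba1c was at 46.7 and 42.3 FPKM in the group labelled Btg4-/-, against 19.2 and 15.1 FPKM in WT (1.33 ± 0.44, adjusted p = 0.0124). This call was lost without the WT library of column 3 (adjusted p = 0.0842) and without the Btg4-/- library of column 2 (0.0606). Tubg1 was at 34.7 and 35.1 FPKM in the group labelled Btg4-/-, against 17.3 and 11.5 FPKM in WT (1.25 ± 0.32, adjusted p = 0.00236). In Cnot6l-/- Tuba1c (23.1 and 23.4 FPKM) and Tubg1 (22.1 and 20.6 FPKM) lay above both WT libraries and were not called (0.43 ± 0.44 and 0.56 ± 0.32). After median-ratio scaling none of the calls of Tuba1b, Tuba1c and Tubg1 at MI remained, with log2 differences of -0.25 to 0.30.

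Tubb2a and Tubb3 were high at MI in every genotype. Tubb2a was at 304.5 and 309 FPKM in Cnot6l-/- and 249 and 253 FPKM in the group labelled Btg4-/-, against 184 and 127 FPKM in WT; the groups did not overlap, and neither difference was called (1.0 ± 0.46, adjusted p = 0.0674; 0.71 ± 0.46, adjusted p = 0.173). After scaling the second turned to -0.50. Tubb3 was at 164.5 and 184 FPKM in Cnot6l-/- and 117 and 115 FPKM in the group labelled Btg4-/-, against 129 and 101 FPKM in WT; the Cnot6l-/- libraries lay above WT and those labelled Btg4-/- within its range, and neither was called (0.60 ± 0.49 and 0.02 ± 0.49). In total 6 of the 10 genes were called higher in Cnot6l-/-, against 60.3% of all tested genes, and 8 of 10 in the group labelled Btg4-/-, against 68.7%. Without Tuba1a the counts were 5 of 9 and 7 of 9, a share close to the background in Cnot6l-/- and not far above it in the group labelled Btg4-/-. The medians over these 9 genes were 1.18 and 1.33 on the log2 scale, where those of all tested genes were 0.87 and 0.99. Median-ratio scaling moved these all-gene medians to 0.278 and 0.225, and the genes called to 3517 higher and 1082 lower in Cnot6l-/- (6565 and 141 as deposited) and to 3193 and 965 in the group labelled Btg4-/- (7473 and 47). These comparisons share their WT libraries. Other values moved with genotype at MI. Summed FPKM of all genes was 296782 to 306383 in Cnot6l-/-, and 366500 to 388589 with the Btg4-/- label, against 134865 to 183621 in WT. The cumulus and granulosa markers summed to 15.9 to 16.1 and 11.1 to 13.4 FPKM, against 7.14 to 8.85 FPKM in WT, and the sperm list to 71.0 to 71.1 and 66.3 to 70.2 FPKM, against 17.99 to 23.6 FPKM. Their part in the results was not tested.

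**Figure D2:**
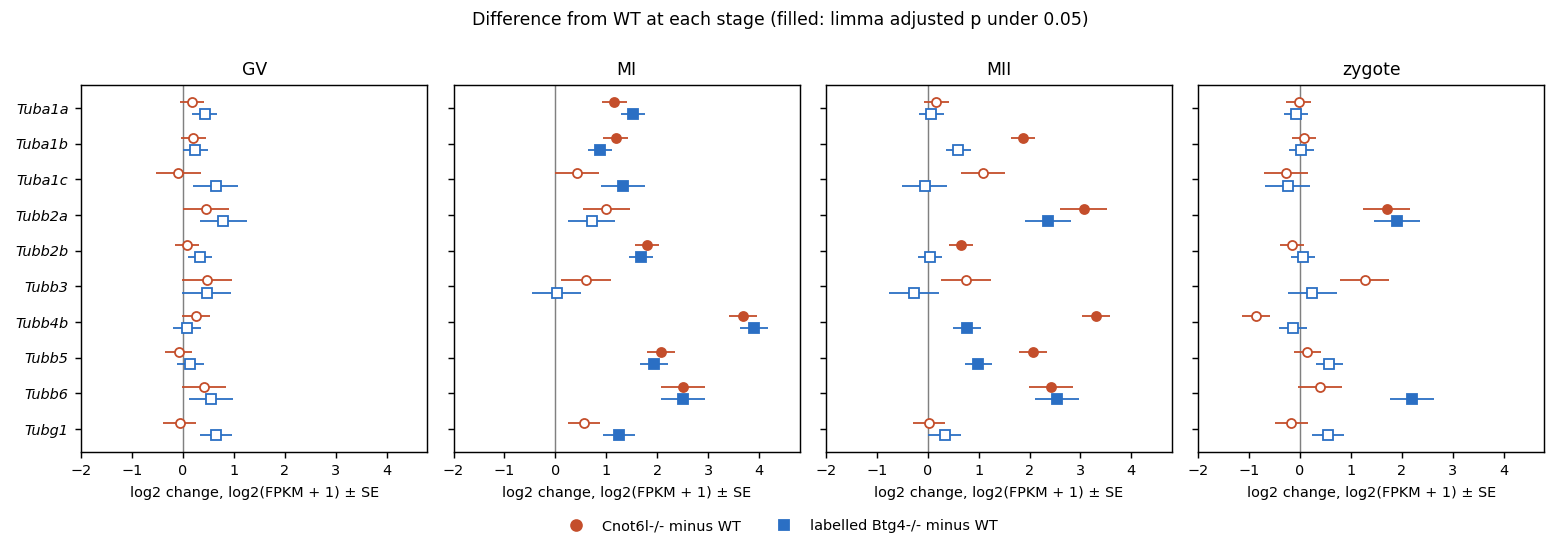
Log2 difference from WT (± SE, limma on log2(FPKM + 1)) of each tubulin gene at each stage; circles are Cnot6l-/- and squares the group labelled Btg4-/-, filled where the adjusted p was under 0.05; the MI values of Tuba1a are a description, since it passed the filter only there. The largest differences are those of Tubb4b at MI (3.69 and 3.91) and at MII in Cnot6l-/- (3.31, beside 0.77 in the group labelled Btg4-/-).

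Neither in Cnot6l-/- nor with the Btg4-/- label was any of the 10 tubulin genes called lower at MI than at GV. In Cnot6l-/- 1 of the 10 genes was called higher at MI, against 8.37% of all tested genes. It was Tubb2a, at 304.5 and 309 FPKM at MI against 77.7 and 146 FPKM at GV (1.52 ± 0.46, adjusted p = 0.0270). This call was lost in 3 of 4 fits that left out a library, with an adjusted p of 0.229 without GV library 1 and of 0.101 and 0.136 without the MI libraries of columns 2 and 3. In the group labelled Btg4-/- 0 of 10 genes were called in limma, against 1.66% of all tested genes in either direction, and 1 had an unadjusted p under 0.05. Tubb4b changed by -0.34 ± 0.27 in Cnot6l-/-, and 0.04 ± 0.27 with the Btg4-/- label.

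Between MI and MII tubulin transcripts fell in every genotype. In WT 9 of the 10 genes were called lower, against 32.6% of all tested genes, with Tuba1a, already near 0, as the exception. Tubb2a fell most, to 5.43 and 4.02 FPKM at MII against 184 and 127 FPKM at MI, by 4.76 ± 0.46 on the log2 scale (adjusted p = 1.76e-06). Tuba1b fell to 0.41 and 0.29 FPKM, against 11.3 and 7.55 FPKM, by 2.92 ± 0.24 (adjusted p = 8.62e-07). Neither gene was called lower at MI than at GV, so in WT their called fall came a stage after that of Tubb4b. Tubb3 was left as the highest, at 32.5 and 47.4 FPKM against 129 and 101 FPKM, and fell by 1.52 ± 0.49 (adjusted p = 0.0227). The calls of Tubb3 and Tubg1 were lost without the WT MI library of column 2 (adjusted p = 0.160 and 0.148) and without WT MII library 1 (0.158 and 0.105), and that of Tubb2b without the WT MI library of column 2 (0.0584) and without WT MII library 2 (0.0701). After median-ratio scaling those of Tubb3 (adjusted p = 0.303) and Tubg1 (adjusted p = 0.348) were lost.

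All 10 genes were called lower at MII than at MI in Cnot6l-/-, against 54.3% of all tested genes, and all 10 in the group labelled Btg4-/-, against 69.3%; without Tuba1a, which passed the filter through these MI groups, it was 9 of 9 in each. Tubb4b fell to 91.1 and 74.6 FPKM at MII in Cnot6l-/-, against 546 and 592 FPKM at MI, by 2.77 ± 0.27 (adjusted p = 6.43e-07). With the Btg4-/- label it fell to 13.5 and 13.2 FPKM, against 642 and 681 FPKM, by 5.53 ± 0.27 (adjusted p = 5.17e-10). The difference between these steps was not tested; that between the MII levels is given further on. In Cnot6l-/- the call of Tuba1c was lost without MII library 1 (adjusted p = 0.125), and that of Tubb3 without each of the 4 libraries, with adjusted p of 0.0674 and 0.103 without the MI libraries of columns 2 and 3 and of 0.106 and 0.0545 without MII libraries 1 and 2. After median-ratio scaling 7 of 10 stayed called in each, those lost being Tuba1c, Tubb3 and Tubg1 in Cnot6l-/- and Tubb3, Tubb6 and Tubg1 in the group labelled Btg4-/-.

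**Figure D3:**
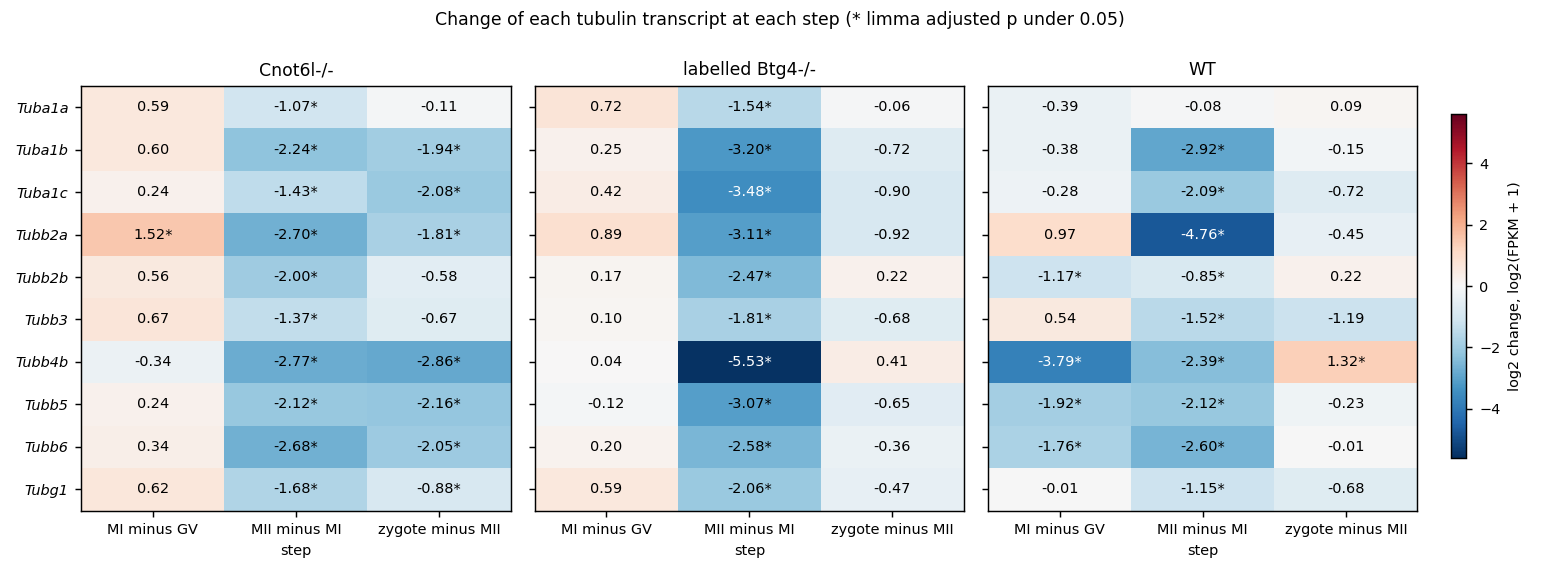
Log2 change of each tubulin gene (rows) at each step between stages (columns) in Cnot6l-/-, the group labelled Btg4-/- and WT; blue is lower and red higher at the later stage, and stars mark limma adjusted p under 0.05. Tubb4b fell by 3.79 at the first step in WT, and by 2.77 and 5.53 at the second step in the other 2 groups. Outside WT, changes of Tuba1a to and from MI are a description, starred or not, since it passed the filter only through those MI groups.

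At MII Cnot6l-/- eggs held more of several beta tubulins and of Tuba1b than WT eggs. Tubb4b was at 91.1 and 74.6 FPKM, against 7.53 and 7.32 FPKM in WT, a log2 difference of 3.31 ± 0.27 (adjusted p = 1.18e-07). Tubb2a was at 40.7 and 52.9 FPKM, against 5.43 and 4.02 FPKM (3.06 ± 0.46, adjusted p = 4.21e-05). Tubb6 was at 48.1 and 42.7 FPKM, against 6.35 and 9.16 FPKM (2.42 ± 0.43, adjusted p = 2.19e-04). The groups did not overlap for these, nor for Tubb5, at 13.6 and 13.1 FPKM against 2.21 and 2.66 FPKM (2.07 ± 0.27, adjusted p = 9.86e-06). Tuba1b was at 3.40 and 4.52 FPKM, against 0.41 and 0.29 FPKM (1.87 ± 0.24, adjusted p = 1.03e-05). These 5 calls held in every fit that left out a library and after both scalings. Tubb2b, at 0.53 and 0.87 FPKM against 0.12 and 0.03 FPKM, was also called (0.66 ± 0.24, adjusted p = 0.0318), and lost the call without Cnot6l-/- MII library 2 (adjusted p = 0.168) and without WT MII libraries 1 and 2 (0.0771 and 0.142). The count of 6 of 10 called higher stands beside 44.3% of all tested genes, and the median of the 10 genes, 1.48, beside 0.56. The cumulus and granulosa markers summed to 8.50 to 13.4 FPKM in these Cnot6l-/- eggs, against 4.99 to 5.35 FPKM in WT eggs, and the sperm list to 25.3 to 26.1 FPKM, against 5.83 to 8.40 FPKM; their part was not tested.

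The other 4 genes were not called in Cnot6l-/- eggs. Tuba1a was at 0.06 and 0.22 FPKM, against 0.01 and 0.01 FPKM in WT. Tuba1c was at 5.51 and 11.4 FPKM, against 2.25 and 4.54 FPKM, without overlap and just short of the threshold (1.08 ± 0.44, adjusted p = 0.0525) in the unblocked fit; it was called with the library number as a block. Tubb3 was at 59.9 and 74.4 FPKM, against 32.5 and 47.4 FPKM, also without overlap and not called (0.75 ± 0.49, adjusted p = 0.224). Tubg1 was at 5.88 and 6.06 FPKM, between the WT libraries of 4.85 and 6.96 FPKM.

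In MII eggs labelled Btg4-/- a smaller set stood above WT. Tubb6 was at 39.9 and 61.1 FPKM, against 6.35 and 9.16 FPKM in WT (2.54 ± 0.43, adjusted p = 2.70e-04), and Tubb2a at 24.6 and 32.5 FPKM, against 5.43 and 4.02 FPKM (2.37 ± 0.46, adjusted p = 8.47e-04). Both groups were separate from WT, and both calls held in every fit that left out a library and after both scalings. Tubb5 was at 6.68 and 5.04 FPKM, against 2.21 and 2.66 FPKM (0.99 ± 0.27, adjusted p = 0.00970), and was lost without Btg4-/- MII library 1 (adjusted p = 0.116), without WT MII library 1 (0.0745) and after scaling (0.45, adjusted p = 0.132). Tubb4b was at 13.5 and 13.2 FPKM, against 7.53 and 7.32 FPKM (0.77 ± 0.27, adjusted p = 0.0438). That call was lost without each of Btg4-/- MII libraries 1 and 2 (adjusted p = 0.180 and 0.104) and WT MII libraries 1 and 2 (0.130 and 0.153), and with the library number as a block (adjusted p = 0.0684), and the difference was 0.11 after scaling. In all 4 of 10 genes were called higher, against 28.3% of all tested genes. The sperm list summed to 11.7 to 14.5 FPKM in these eggs, against 5.83 to 8.40 FPKM in WT eggs, and the cumulus and granulosa markers to 3.06 to 5.84 FPKM, against 4.99 to 5.35 FPKM; their part was not tested.

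Set directly against each other, Cnot6l-/- and the group labelled Btg4-/- were first called apart at MII with all libraries in the fit. At GV 0 of 10 genes were called, against 18.3% of all tested genes in either direction, and at MI 0 of 10, against 10.1%; limma gave 1 unadjusted p under 0.05 at each stage. With only the 4 MI libraries of these groups in the fit, 5 genes were called at MI: Tuba1b (0.31, adjusted p = 0.0323), Tubb2a (0.29, 0.0336) and Tubb3 (0.58, 0.0123) higher in Cnot6l-/-, and Tuba1c (-0.91, 0.00519) and Tubg1 (-0.69, 0.00738) lower. Of these, Tuba1c and Tubg1 were also called when a block for the MI columns was fitted. At MI the difference for Tubb4b was -0.22 ± 0.27 and for Tubb6 -0.02 ± 0.43. At MII 3 of 10 genes were called higher in Cnot6l-/-, against 11.0% of all tested genes. Tubb4b, at 91.1 and 74.6 FPKM in Cnot6l-/- against 13.5 and 13.2 FPKM in the group labelled Btg4-/-, differed by 2.54 ± 0.27 (adjusted p = 1.10e-05), a call that stood under both scalings and without each library. Tuba1b, at 3.40 and 4.52 FPKM against 1.15 and 0.95 FPKM, differed by 1.27 ± 0.24 (adjusted p = 0.00209). Tubb5, at 13.6 and 13.1 FPKM against 6.68 and 5.04 FPKM, differed by 1.08 ± 0.27 (adjusted p = 0.0120), and lost the call without Cnot6l-/- MII library 1 (adjusted p = 0.0798) and without Btg4-/- MII library 2 (0.130). Tubb6, at 48.1 and 42.7 FPKM against 39.9 and 61.1 FPKM, overlapped. With only the 4 MII libraries of these groups in the fit, 0 of the 3 calls remained, with adjusted p of 0.0805 to 0.149.

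Measured from GV to MII, 8 of 10 genes were called lower in Cnot6l-/-, against 59.9% of all tested genes, 10 of 10 in the group labelled Btg4-/- (Tuba1a included), against 75.3%, and 8 of 10 in WT, against 83.4%. Tubb4b fell by 3.12 ± 0.27, 5.49 ± 0.27 and 6.18 ± 0.27 in that order of genotypes, keeping 11.4%, 2.08% and 1.22% of its GV mean. Tubb5 kept 25.7%, 9.54% and 4.42%, and Tubb2a 42.0%, 20.0% and 5.99%. In WT the genes not called were Tuba1a, near 0 throughout, and Tubb3, which kept 50.3%. After median-ratio scaling 3, 5 and 6 of the genes stayed called lower. In WT that scaling and equal sums turned the direction of Tubg1, called lower as deposited, to 0.58 and 0.94, and that of Tubb3 to 0.92 and 1.31. In Cnot6l-/- the calls of Tuba1c, Tubb2a and Tubg1 were also lost without GV library 2 (adjusted p = 0.260, 0.280 and 0.0547), those of Tuba1c and Tubb2a without MII library 1 (0.223 and 0.141) and that of Tubb2a without MII library 2 (0.0620). Among calls of the group labelled Btg4-/- that of Tuba1a was lost without GV library 1 (0.167).

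Whether the GV to MII change itself differed from that in WT was tested as an interaction. In Cnot6l-/- 5 of 10 genes fell less than in WT, against 24.1% of all tested genes: Tubb4b by 3.06 ± 0.39 on the log2 scale (adjusted p = 3.85e-05), Tubb2a by 2.61 ± 0.65, Tubb5 by 2.15 ± 0.38, Tubb6 by 2.02 ± 0.61 and Tuba1b by 1.67 ± 0.34. In the group labelled Btg4-/- it was 1 of 10, against 13.3%, namely Tubb6 (1.99 ± 0.61, adjusted p = 0.0361). The call of Tubb6 in Cnot6l-/- was lost without Cnot6l-/- GV library 1 (adjusted p = 0.110), Cnot6l-/- MII library 1 (0.0714), WT GV library 2 (0.0560) or WT MII library 1 (0.0872). The one in the group labelled Btg4-/- was lost without each of the 8 libraries, with adjusted p of 0.0534 to 0.128. After median-ratio scaling the calls of Tubb4b (2.24), Tubb5 (1.46) and Tuba1b (1.41) remained, and those of Tubb2a and Tubb6 did not.

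In zygotes few of the 10 tubulin genes were called against WT, and their levels were low. Tubb4b was at 7.51 and 14.6 FPKM in Cnot6l-/- zygotes and 19.1 and 17.1 FPKM in zygotes labelled Btg4-/-, against 20.1 and 19.9 FPKM in WT zygotes. Both groups lay under WT without a call (-0.87 ± 0.27, adjusted p = 0.0602; -0.14 ± 0.27, adjusted p = 0.780); after median-ratio scaling both were called lower (-1.54, adjusted p = 0.00135; -1.02, adjusted p = 0.0202). Tubb2a was at 8.33 and 18.5 FPKM in Cnot6l-/- and 12.9 and 16.3 FPKM in the group labelled Btg4-/-, against 1.63 and 5.54 FPKM in WT, and was called higher in both (1.70 ± 0.46 and 1.90 ± 0.46, adjusted p = 0.0271 and 0.00617). The call in Cnot6l-/- was lost without Cnot6l-/- zygote library 2 (adjusted p = 0.376) or WT zygote library 1 (0.243), and the call in the group labelled Btg4-/- without WT zygote library 1 (0.0863). Tubb6 was at 6.55 and 15.6 FPKM in Cnot6l-/- and at 33.0 and 44.5 FPKM in the group labelled Btg4-/-, against 4.29 and 12.9 FPKM in WT, and was called only in the group labelled Btg4-/- (2.20 ± 0.43, adjusted p = 0.00138). These calls of Tubb2a and Tubb6 were lost after both scalings (adjusted p of 0.106 to 0.267), so that each comparison then had 0 genes called higher and 1, Tubb4b, called lower. As deposited, 1 of 10 genes was called higher in Cnot6l-/-, against 8.00% of all tested genes, and 2 of 10 in the group labelled Btg4-/-, against 21.5%. The cumulus and granulosa markers summed to 6.10 to 6.92 FPKM in Cnot6l-/- and 2.45 to 4.92 FPKM in the group labelled Btg4-/-, against 1.48 to 1.93 FPKM in WT zygotes. In the same order the sperm list summed to 3.82 to 9.80 FPKM and 8.07 to 9.85 FPKM, against 6.26 to 6.31 FPKM in WT zygotes. The part of either list was not tested.

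From MII to zygote tubulin transcripts fell further in Cnot6l-/-, with 7 of 10 called lower, against 28.7% of all tested genes. Fertilisation cannot be told apart here from the change from culture to the animal. Tubb4b fell to 7.51 and 14.6 FPKM in zygotes, against 91.1 and 74.6 FPKM in MII eggs, by 2.86 ± 0.27 (adjusted p = 1.99e-06). Tubb5 fell to 1.64 and 2.90 FPKM, against 13.6 and 13.1 FPKM, by 2.16 ± 0.27 (adjusted p = 1.44e-05), and Tuba1b to 0.14 and 0.45 FPKM, against 3.40 and 4.52 FPKM, by 1.94 ± 0.24 (adjusted p = 1.61e-05). The other 4 were Tuba1c, Tubb6, Tubb2a and Tubg1; of these Tuba1c, Tubb2a and Tubg1 lost the call without zygote library 1 (adjusted p = 0.0509, 0.127 and 0.432), Tubg1 also without MII libraries 1 and 2 (0.156 and 0.120), and Tubb6, Tubb2a and Tubg1 after median-ratio scaling. In the group labelled Btg4-/- limma called 0 of 10, against 1.32% of all tested genes in either direction, with 2 at an unadjusted p under 0.05. In WT 1 of 10 was called higher, against 1.04%: Tubb4b, at 20.1 and 19.9 FPKM in zygotes against 7.53 and 7.32 FPKM in MII eggs (1.32 ± 0.27, adjusted p = 0.00983). This call was lost without WT MII library 1 (adjusted p = 0.0604), WT MII library 2 (0.0881) or WT zygote library 1 (0.0619), while median-ratio scaling gave 1.89 (adjusted p = 2.63e-04).

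The interaction of this step with genotype called 4 of 10 genes in Cnot6l-/-, all with a lower change than in WT, against 16.0% of all tested genes. Tubb4b differed by -4.18 ± 0.39 (adjusted p = 8.40e-06), Tubb5 by -1.93 ± 0.38, Tuba1b by -1.79 ± 0.34 and Tubb6 by -2.03 ± 0.61. The call of Tubb6 was lost without Cnot6l-/- MII libraries 1 and 2 (adjusted p = 0.0895 and 0.0502), Cnot6l-/- zygote library 1 (0.157), WT MII library 1 (0.112) or WT zygote library 2 (0.137), and after scaling (adjusted p = 0.0909), whereas the others stood in all of them. In the group labelled Btg4-/- limma called 0 of 10, against 0.184% of all tested genes in either direction, and 1 had an unadjusted p under 0.05. Between the 2 groups themselves, zygotes differed in 1 of 10 genes, called lower in Cnot6l-/-, against 12.8% of all tested genes: Tubb6, at 6.55 and 15.6 FPKM in Cnot6l-/- against 33.0 and 44.5 FPKM in the group labelled Btg4-/- (-1.81 ± 0.43, adjusted p = 0.00845). It was lost without Cnot6l-/- zygote library 1 (adjusted p = 0.154) or Btg4-/- zygote library 2 (0.0558).

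Tubb4b was the largest part of the summed level of the 10 genes at GV, and outside WT also at MI. In Cnot6l-/- the sum was 1089 and 1504 FPKM at GV, 1441 and 1522 FPKM at MI, 269 and 281 FPKM at MII and 50.5 and 130 FPKM in the zygote libraries. The sums in the group labelled Btg4-/- were 1398 and 1193 FPKM at GV, 1466 and 1511 FPKM at MI, 125 and 161 FPKM at MII, and 91.7 and 113 FPKM in the zygote libraries. The WT sums were 938 and 1169 FPKM at GV, 483 and 360.3 FPKM at MI, 61.6 and 82.4 FPKM at MII, and 41.3 and 76.3 FPKM in the zygote libraries. Relative to WT the mean sum was 1.23-fold at GV in both groups, 3.52-fold (Cnot6l-/-) and 3.53-fold (labelled Btg4-/-) at MI, 3.82-fold and 1.98-fold at MII, and 1.54-fold and 1.74-fold in zygotes. After median-ratio scaling the GV ratios were 1.25 (Cnot6l-/-) and 1.16 (labelled Btg4-/-), those of MI oocytes 1.845 and 1.53, and those of MII eggs 2.165 and 1.26. The scaled zygote ratios were 0.864 and 0.917, but the scaled sums of single libraries overlapped. They were 101 and 199 in Cnot6l-/- and 107 and 211 in the group labelled Btg4-/-, all between the WT values of 95.5 and 252. At MI Tubb4b made up 37.9% to 38.9% of the sum in Cnot6l-/-, and 43.8% to 45.1% with the Btg4-/- label, against 9.83% to 10.9% in WT MI oocytes. In WT Tubb2a, at 35.2% to 38.1%, and Tubb3, at 26.7% to 28.0%, were the larger shares. At MII the leading gene was Tubb3 in WT (52.7% to 57.6%), Tubb6 in the group labelled Btg4-/- (31.9% to 38.0%) and, in Cnot6l-/-, Tubb4b in library 1 (33.9%) and both Tubb4b (26.6%) and Tubb3 (26.5%) in library 2. No test was made on the sum.

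**Figure D4:**
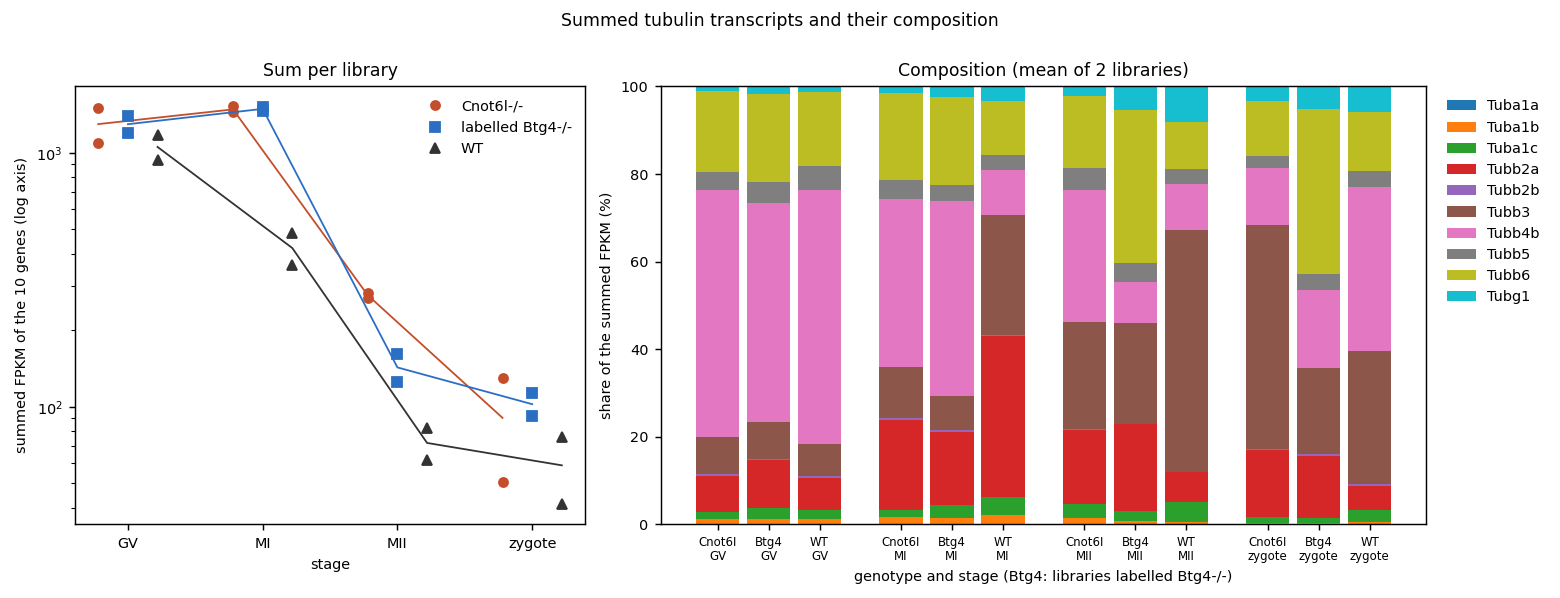
Left, summed FPKM of the 10 tubulin genes in each library (log axis) by stage and genotype; right, the share of each gene in that sum, as the mean of 2 libraries. Tubb4b is the largest share at GV in all genotypes and at MI in 2 of 3, while Tubb2a and Tubb3 lead in WT MI oocytes.

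At GV the 3 alpha members together reached 26.5 to 61.3 FPKM in the 6 libraries, less in each than Tuba4a (92.4 to 131 FPKM) or Tuba3a (76.3 to 155 FPKM), other alpha tubulins in the table. At MI Tuba4a was at 55.7 and 60.2 FPKM in Cnot6l-/- and 92.5 and 98.8 FPKM in the group labelled Btg4-/-, against 3.78 and 3.56 FPKM in WT MI oocytes. Its log2 differences at MI were 3.66 ± 0.26 and 4.37 ± 0.26 (adjusted p = 1.04e-08 and 2.31e-09). Tuba3a was at 129 and 154 FPKM in Cnot6l-/-, against 19.8 and 11.7 FPKM in WT (3.13 ± 0.37, adjusted p = 1.55e-06). Tubd1, the delta-tubulin known from centrioles, was also higher in Cnot6l-/- than in WT at MI (2.49 ± 0.26, adjusted p = 4.30e-07). Within Cnot6l-/- Tuba4a (limma, -0.90 ± 0.26, adjusted p = 0.0241) and Tubd1 (-0.74 ± 0.26, adjusted p = 0.0489) were called lower at MI than at GV. Tubb1, the beta tubulin of platelets, was listed at 0 in every library. Of 7 tested genes among 10 other tubulins, 3 were called higher at MI in Cnot6l-/-, and 5 with the Btg4-/- label, and at MII 3 and 4. The shares of all tested genes called higher were 60.3% and 68.7% at MI and 44.3% and 28.3% at MII, in this order of groups, so those of Cnot6l-/- are at or under the background. In zygotes, as deposited, 0 and 4 of the 7 were called higher, against 8.00% and 21.5% of all tested genes. Tubg2, the second gamma-tubulin, was at 69.2 and 66.0 FPKM in Cnot6l-/- and 63.0 and 58.1 FPKM in the group labelled Btg4-/-, against 54.7 and 39.1 FPKM in WT MI oocytes.

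Most genes that fold tubulin were called higher than in WT at MI and MII as deposited. They and the further lists were drawn up with earlier results of these data known. Counts and differences of these lists and of the other tubulins were not checked after scaling or with a library left out. Of 21 tested genes for tubulin folding (the chaperonin CCT, prefoldin and tubulin cofactors), 18 were called higher at MI in Cnot6l-/-, and 19 with the Btg4-/- label, against 60.3% and 68.7% of all tested genes, with medians of 1.74 and 1.79 beside 0.87 and 0.99. At MII 19 and 16 were called higher, against 44.3% and 28.3%, with medians of 2.15 and 1.77 beside 0.56 and 0.38. None of the 21 was called lower in these 4 comparisons. In zygotes, as deposited, 3 (Cnot6l-/-) and 13 (labelled Btg4-/-) of the 21 were called higher, against 8.00% and 21.5% of all tested genes. Cct5, a CCT subunit, was at 263 and 261 FPKM in Cnot6l-/- and 337 and 379 FPKM in the group labelled Btg4-/-, against 26.6 and 24.4 FPKM in WT MI oocytes (3.31 ± 0.26 and 3.76 ± 0.26). H2-Ke2, the prefoldin subunit now named Pfdn6, differed by 3.41 ± 0.23 and 3.42 ± 0.23. Among the smallest called differences were those of Cct7 (0.67 ± 0.27 in Cnot6l-/-, adjusted p = 0.0381) and Tbcd, a cofactor that binds beta tubulin (0.58 ± 0.17, adjusted p = 0.00678). At MII the prefoldin subunit Vbp1 led with 3.64 ± 0.79 and 4.30 ± 0.79.

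Of the genes of microtubule nucleation and the spindle a smaller part was called. Of 18 tested genes of gamma-tubulin complexes and augmin, 11 were called higher at MI in each of the 2 groups (medians 0.84 and 0.82), and 8 (Cnot6l-/-) and 6 (labelled Btg4-/-) at MII. These shares are near those of all tested genes (60.3% and 68.7% at MI, 44.3% and 28.3% at MII), and the medians at MI lie under 0.87 and 0.99. Mzt2, a small subunit of the gamma-tubulin ring complex, was at 14.7 and 16.4 FPKM in Cnot6l-/-, against 1.65 and 1.06 FPKM in WT MI oocytes (2.82 ± 0.21, adjusted p = 1.56e-08), and Haus7, an augmin subunit, differed by 3.57 ± 0.35 in the group labelled Btg4-/-. Of 23 microtubule regulators 7 and 8 were called higher at MI, a share under that of all tested genes, with medians of 0.46 and 0.63. Tacc3, which stabilises spindle microtubules, was at 384 and 419 FPKM in Cnot6l-/- and 445 and 458 FPKM in the group labelled Btg4-/-, against 49.7 and 39.8 FPKM in WT (3.14 ± 0.28 and 3.31 ± 0.28). At MII 6 of the 23 regulators were called higher in each group, against 44.3% and 28.3% of all tested genes. Their medians were 0.29 and 0.36, under the 0.56 and 0.38 of all tested genes. Among those called was Aspm, a spindle pole protein, which differed by 2.84 ± 0.39 and 2.15 ± 0.39 at MII.

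Of 15 tested enzymes that modify tubulin, 9 were called higher and 1 lower at MI in Cnot6l-/-, and 12 higher and 1 lower in the group labelled Btg4-/-; at MII 5 and 2 were higher and 1 lower in each. Of all tested genes 60.3% and 68.7% were called higher at MI and 44.3% and 28.3% at MII, so the counts of higher genes are near the background at MI and under it at MII. The gene called lower was Agbl2, a carboxypeptidase that trims the tail of tubulin, at 0.05 and 0.33 FPKM in Cnot6l-/- and 0.22 and 0.40 FPKM in the group labelled Btg4-/-, against 5.42 and 2.84 FPKM in WT MI oocytes. It was near 0 at GV too in both groups, at 0.02 to 0.25 FPKM against 7.75 and 5.82 FPKM in WT. WT eggs at MII had 4.19 and 3.86 FPKM, but WT zygotes only 0.05 and 0.01 FPKM. Zygotes of the other 2 groups were as low, at 0.04 to 0.11 FPKM, so this difference from WT was absent in zygotes. The cause was not tested. Ttll1, a polyglutamylase, was higher in Cnot6l-/- at MI (2.56 ± 0.19), and Ccdc23, now named Svbp and the partner of the vasohibin carboxypeptidases, at MII (3.49 ± 0.35, and 4.26 ± 0.35 in the group labelled Btg4-/-).

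The 3 genes of tubulin autoregulation were all called higher at MI in both groups, against 60.3% and 68.7% of all tested genes, and lower in WT between GV and MI, against 65.1%. Ttc5 was at 30.3 and 25.7 FPKM in Cnot6l-/- and 34.2 and 28.4 FPKM in the group labelled Btg4-/-, against 8.66 and 8.47 FPKM in WT MI oocytes (1.60 ± 0.21 and 1.75 ± 0.21). At MII it was at 5.42 and 4.13 FPKM and at 4.07 and 3.59 FPKM, against 0.60 and 0.26 FPKM in WT. Of the 3 genes, 2 were called higher at MII in each group, against 44.3% and 28.3% of all tested genes. The exception was Scaper (0.52 ± 0.29 and 0.44 ± 0.29, limma adjusted p = 0.158 and 0.297). In zygotes 1 (Cnot6l-/-) and 2 (labelled Btg4-/-) of the 3 were called higher, against 8.00% and 21.5%. Scaper was at 4.19 and 3.93 FPKM and at 4.57 and 4.25 FPKM at MI, against 2.50 and 1.56 FPKM in WT (0.76 ± 0.29 and 0.85 ± 0.29, adjusted p = 0.0320 and 0.0157). D1Bwg0212e, now named Cnot11 and the CCR4-NOT subunit that contacts SCAPER, differed by 1.498 ± 0.294 and 1.891 ± 0.294 (adjusted p = 2.87e-04 and 2.60e-05). In WT between GV and MI, 19 of the 21 folding genes, 11 of 18 of the gamma-tubulin list, 11 of 15 modifying enzymes, 7 of 23 regulators and all 3 autoregulation genes were called lower and 0 higher, against 65.1% of all tested genes called lower; that share was near the background for the gamma-tubulin list and under it for the regulators.

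Across the 12 group means of log2(FPKM + 1), the tubulin genes were not all alike in pattern. The Pearson correlation between members ran from 0.72 (Tuba1a and Tubb3) to 0.977 (Tuba1b and Tubb5); Tubb4b went with Tubb2b at 0.975 and Tubb5 at 0.973, and less with Tubb3 at 0.794. These 12 points share genotypes, stages and the fall of all transcripts, so high values are common. Among 4784 genes that reached 10 FPKM in some group, those most like Tubb4b were Vps4a (0.9975) and Sod1 (0.9969), and those most like Tubb5 were Ptplad1 (0.9989) and Slc11a2 (0.9955). Tubb6 was most like Tomm40 (0.996) and Nobox (0.9937), Tubb2a most like Mtmr14 (0.988) and Cog6 (0.9859), and Tubb3 most like Trafd1 (0.986) and Tubg2 (0.985). Tuba1b was most like Anapc5 (0.9939) and Pld3 (0.9917), Tuba1c most like Slc25a1 (0.9883) and Agpat6 (0.9835), and Tubg1 most like Mcm7 (0.9884) and Mxd1 (0.9856).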

How the data were processed

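RNA-seq libraries were prepared with Smart-Seq2 and a Tn5 kit, per the labels' protocols. Per the submitters' processing notes, the tools named are CASAVA 1.8, TopHat2 2.0.11, Bowtie2 2.1.0 and Cufflinks 2.2.1, with the build mm9. The deposited values are FPKM made by the authors, for 23235 genes in 24 libraries; their scaling between libraries, strand handling and treatment of reads shared by gene copies are not given in the sources used here. The table of all libraries was used, and its columns of MI libraries, numbered 2 and 3 where titles say 1 and 2, were assigned to groups only. Tables of single libraries were not used.

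The 10884 genes that averaged 1 FPKM or more in any of the 12 groups were fitted as log2(FPKM + 1), 1 mean per group and 12 residual degrees of freedom, with R 4.3.3 and limma 3.58.1 (lmFit, then eBayes with trend = TRUE). The 28 contrasts were tested two-sided, with Benjamini-Hochberg adjustment over all genes and a threshold of 0.05. A pseudocount of 1 understates changes of low genes. The fit was tested on simulated data. All 10 members are named; of each list, a subset of the 2 highest and 2 lowest called genes per contrast, and all of lists of 3; and the 2 genes most like each member above 10 FPKM. Values of other tubulins and of Agbl2 at GV, of Agbl2 at MII in WT and in zygotes, and of Tubg2, were added after they were seen. The members, lists and alternatives were chosen with earlier results of these data known. Alternatives were a pseudocount of 0.1, no filter, 2 scalings, only the libraries compared, library number as a block and each library left out; a fit without the MI libraries and a block for the MI column number were chosen after seeing the data. Coding starts, identities and 3′ UTR letters came from gencode vM1 transcripts. Tables and figures were made with pandas 2.3.3, numpy 2.4.6 and matplotlib 3.10.9 under Python 3.11.15.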

Additional observations from a re-analysis of the deposited data

Results flagged for a closer look

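The tests of a different stage change between a knockout and WT singled out 10 values, all on the log2 scale. From GV to MII, Cnot6l-/- fell less than WT by 3.06 for Tubb4b, 2.61 for Tubb2a, 2.15 for Tubb5, 2.02 for Tubb6 and 1.67 for Tuba1b, and the group labelled Btg4-/- by 1.99 for Tubb6. From MII to zygote, the change in Cnot6l-/- differed from that in WT by -4.18 for Tubb4b, -2.03 for Tubb6, -1.93 for Tubb5 and -1.79 for Tuba1b. These 2 sets share the MII libraries, so a high MII level in Cnot6l-/- enters both with opposite sign. Groups of 2 libraries were too small to look for single libraries apart from the rest.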

How the results depend on the processing

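Of 109 pairs of gene and comparison that were called, 83 stayed called without each library in turn and 66 after both scalings. These include pairs of Tuba1a with the MI groups through which it passed the filter, which are a description without a test. The counts in this section likewise keep Tuba1a among the genes. Without it, 7 of 9 genes were called in the group labelled Btg4-/- minus WT at MI, and 5 of 9 in Cnot6l-/-, as deposited. Counts of called genes moved by over 1.5 times as follows. After median-ratio scaling and with equal sums they were 4 and 4 (8 as deposited) at MI and 2 and 2 (4) at MII in the group labelled Btg4-/- minus WT, 1 and 1 (2) in its zygotes, both lower, 4 and 4 (7) from MII to zygote and 3 and 1 (8) from GV to MII in Cnot6l-/-, 5 and 5 (10) from GV to MII in the group labelled Btg4-/-, and 3 and 3 (5) and 0 and 0 (1) for the differences of that change from WT (Cnot6l-/-, then the group labelled Btg4-/-). Equal sums alone gave 6 (1) from GV to MI in Cnot6l-/-, 2 (1) from MII to zygote in WT, 0 (1) between the knockouts in zygotes and 1 (0) for the difference of the MII to zygote change in the group labelled Btg4-/-. With only the libraries compared there were 2 (4) at MII in the group labelled Btg4-/-, 0 in zygotes of both groups against WT, between them in zygotes and at MII, and from MII to zygote in WT, 2 (1) from GV to MI in Cnot6l-/- and 5 (0) between the knockouts at MI. A pseudocount of 0.1 gave 2 (1) in Cnot6l-/- zygotes, 0 (1) from GV to MI in Cnot6l-/- and 1 (0) from MII to zygote in the group labelled Btg4-/-. Without a filter the counts were 0 (1) from GV to MI in Cnot6l-/- and 0 (1) for the GV to MII difference in the group labelled Btg4-/-, and without the MI libraries 0 (1) for that difference, for Cnot6l-/- zygotes and for MII to zygote in WT. The cause was not tested, except that the fits with few libraries have few residual degrees of freedom.

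With 1 library left out, counts ranged from 0 to 1 for the group labelled Btg4-/- minus WT at GV, for its GV to MI step and between the knockouts at GV, from 2 to 3 at MII and 1 to 3 in zygotes of the group labelled Btg4-/-, from 0 to 2 in Cnot6l-/- zygotes, between the knockouts in zygotes, from GV to MI in Cnot6l-/- and from MII to zygote in WT, from 4 to 8 from MII to zygote and 5 to 8 from GV to MII in Cnot6l-/-, and 0 in every such fit for the GV to MII difference in the group labelled Btg4-/-. The lone library is then assumed to vary like the other groups.

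Directions turned in these cases, as median-ratio scaling and equal sums: in Cnot6l-/- minus WT at MI Tubb3 (-0.34 and -0.33) and Tubg1 (-0.33 and -0.33); in the group labelled Btg4-/- minus WT at MI Tuba1b (-0.25 and -0.29) and Tubb2a (-0.50 and -0.54); from GV to MI in WT Tuba1b (0.74 and 1.11) and Tubg1 (1.14 and 1.52); from GV to MII in WT Tubb3 (0.92 and 1.31) and Tubg1 (0.58 and 0.94). With equal sums alone Tuba1c (0.05), Tubb2a (0.15) and Tubg1 (0.15) turned from GV to MII in Cnot6l-/-. With 1 library left out the change of Tubg1 from GV to MI in WT ran from -0.29 to 0.27. The values of 138 pairs called nowhere changed sign in 151 of 1585 alternatives.

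Library numbers were tried as a replicate block in the 18 libraries other than MI. Deviations of same-numbered libraries from their group means correlated from -0.31 to 0.71 over 36 pairs of groups, over 0.1 in 28. The other 8 all involve the GV group labelled Btg4-/- (-0.31 to 0), while the 28 pairs among the other groups correlated at 0.28 to 0.71; since not every pair did, and the labels tie no numbers together, the libraries were kept unpaired. With the replicate block 7 genes were called in Cnot6l-/- minus WT at MII (6 without) and 3 in the group labelled Btg4-/- (4 without). It also brought calls of Tuba1c between the knockouts at MII (adjusted p = 0.0404) and of Tubb3 from GV to MII in WT (0.0381). With the MI column number as a replicate block, 9 were called in each group minus WT at MI (6 and 8 without), and 2 (0) between the knockouts. Depth is unknown, so values under 1 FPKM, as of Tuba1a and Tubb2b, carry counting error that could not be given.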
